A study of Homo sapiens with 16 samples.

Results

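The transcripts described here were measured by 279 of the 24350 GI-numbered probes of an Illumina bead array, those that stood lower after 12 h of cisplatin and near control after 12 h of A0. The RNA came from HT1080, an established human fibrosarcoma line. Cells had been exposed to cisplatin for 3, 6 or 12 h, or to the thioxotriazole copper(II) complex A0 for 1, 3, 6 or 12 h, each drug at 25 µM in growth medium with serum, or were labelled as controls. Each of the 8 groups had 2 arrays, giving 6 cisplatin, 8 A0 and 2 control arrays. No time or vehicle is given for the controls, so a difference from control cannot be told apart from one of handling or culture time. Nothing in the labels says that the 2 samples of a group were separate cultures, and the p-values below may therefore measure technical spread alone.

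Cisplatin binds neighbouring purines in DNA, and its adducts stall DNA polymerases and the elongating RNA polymerase II. When synthesis of a transcript is blocked, its level falls at the pace of its decay, so that short-lived transcripts fall first. A0 is described in the series title as a cause of endoplasmic reticulum stress and of paraptosis, a form of cell death marked by swollen vacuoles instead of the nuclear fragmentation of apoptosis. The files identify each probe by a GI sequence number with no gene symbol. Compared as text with the locus tags, synonyms and accessions of the RefSeq gene table, 0 of these numbers matched. Such identifiers are written otherwise than GI numbers, so the lack of matches says nothing about the probes. No gene, pathway or sequence is therefore named, and the fibrosarcoma label was not checked against marker genes.

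The probes were chosen by measured values. For each array the deposited intensity was raised to a floor of 32 where it was lower and put on the log2 scale, and the mean of the 2 control arrays was taken from the mean of the 2 arrays of a group. A member had to lie at -1 or lower in cisplatin 12 h, less than 0.5 from control in A0 12 h, and to have a detection score of at least 0.99 on both control arrays (the score runs from 0 to 1 and is 1 minus the detection p). Of the 24350 probes, 8264 were detected on both controls. Of these, 532 (6.44%) lay at -1 or lower in cisplatin 12 h, and A0 12 h divided them into the 279 members, 194 probes at -0.5 or lower and 59 at 0.5 or higher. The member nearest the cisplatin threshold had a difference of -1.00865 and the nearest probe outside it -0.99819. There were 52 members within 0.1 of that threshold and 64 probes within 0.1 on its other side that met the other criteria. At the upper A0 threshold the nearest values were 0.49744 inside and 0.50873 outside, and at the lower one -0.49973 inside and -0.50763 outside. The detection score turned away 0 probes that met the other criteria. Since cisplatin 12 h, A0 12 h and control chose the members, every difference that involves these 3 groups is given as a description with no test.

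No GI number occurred in 2 members. By the suffix of the probe name, 235 members (84.2%) stand for a gene with a single transcript, 26 (9.3%) for all variants of a gene and 18 (6.5%) for 1 of several variants. Among the 8264 probes detected on both controls these shares were 82.7%, 12.0% and 5.3%. The arrays detected between 7626 and 9640 probes each, with a median of 41 or 42 beads per probe. The factor that the authors applied to each array ran from 0.848 to 2.553. The number of arrays limits the precision: between the 2 arrays of a group, the members differed with an SD of 0.287 on the normalised log2 scale in A0 1 h, the narrowest group, and 0.543 in cisplatin 12 h, the widest.

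As a median, the members declined step by step through the cisplatin series and stayed close to control in the A0 series. Their median deposited intensity was 161.8 and 143.3 on the cisplatin 3 h arrays, 106.7 and 87.4 at 6 h, then 55.7 and 61.0 at 12 h. In the A0 series it was 189.9 and 173.5 at 1 h, 186.5 and 174.1 at 3 h, 171.7 and 184.4 at 6 h, then 164.0 and 172.5 at 12 h. The control arrays stood at 167.2 and 176.3. Both cisplatin 6 h arrays and both cisplatin 12 h arrays lay below all other arrays, and the 3 h arrays were the next lowest, just under the lower of the A0 12 h arrays.

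On the log2 scale the median difference of the members from control was -0.20 at cisplatin 3 h, -0.77 at 6 h and -1.34 at 12 h. In A0 it was 0.07, 0.01, 0.04 and -0.07 at 1, 3, 6 and 12 h. The median over all 8264 probes detected on both controls ran from 0.01 in cisplatin 12 h to 0.12 in A0 12 h. The members' values ranged from -1.56 to 1.11 at cisplatin 3 h, from -2.36 to 0.49 at 6 h and from -3.05 to -1.01 at 12 h. At 12 h the floor of 32 limits the fall that can be seen, since both cisplatin arrays lay at the floor for 36 members and 1 of them for 66 more.

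**Figure D1:**
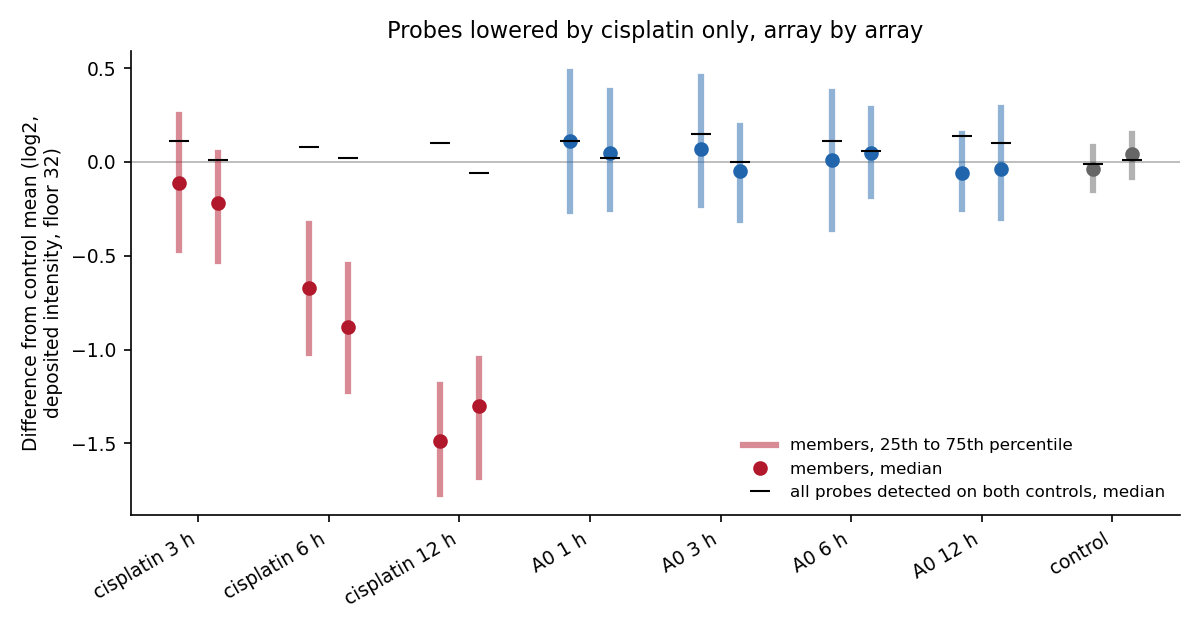
The difference of each array from the mean of the 2 control arrays is plotted for the 279 members (log2 of deposited intensity with a floor of 32). Dots are medians over the members, bars run between the 25th and 75th percentiles, and black dashes are medians over the 8264 probes detected on both controls; the cisplatin medians lie at -0.11 and -0.22 at 3 h, -0.67 and -0.88 at 6 h, then -1.49 and -1.30 at 12 h.

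The fall was seen mostly from 6 h. At cisplatin 3 h, 57 members lay at -0.5 or lower, where 9.67% of the 8264 probes did, and 11 lay at -1 or lower, where 1.5% did. At 6 h there were 198 such members, against 15.2% of these probes, and 86 lay at -1 or lower, against 4.27%. Counted by the first time at -0.5 or lower, 57 members had reached this mark at 3 h, 144 first reached it at 6 h and 78 only at 12 h. Of the 57 that had reached it at 3 h, 54 were also below it at 6 h. The difference at 6 h was a median of 53.9% of that at 12 h, with quartiles of 33.9% and 76.0%, and the difference at 3 h was a median of 13.6%, with quartiles of -10.1% and 31.2%. The mean of the 2 arrays was lower at 6 h than at 3 h in 265 members and lower at 12 h than at 6 h in 252. Both steps went down in 238. No share over all probes was counted for these steps. On the normalised values, cisplatin 6 h lay below 3 h in 258 members, against 47.8% of all tested probes. The 252 and 238 use the 12 h values that chose the members, so no steady decline is read from them. In the 265 the control mean cancels. All other counts from deposited values here share the control arrays or the 12 h arrays with the rule.

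The 3 classes by first time also stood apart in the A0 arrays, which are compared with the same 2 control arrays. In the class that reached -0.5 at cisplatin 3 h, the median difference from control was -0.72, -1.14 and -1.36 at cisplatin 3, 6 and 12 h, and -0.43, -0.43, -0.33 and -0.24 at A0 1, 3, 6 and 12 h. In the class that reached it at 6 h, the medians were -0.18, -0.87 and -1.48 in cisplatin and 0.07, 0.01, 0.06 and -0.08 in A0. In the class that reached it at 12 h, they were 0.21, -0.29 and -1.25 in cisplatin and 0.41, 0.32, 0.24 and 0.07 in A0. A control value that is high by chance lowers all of these differences at once, so the order of the classes in A0 is not independent of that in cisplatin. How far this sets the order was not tested.

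The drugs were compared directly at 6 h, between groups that had no part in the choice of the members. The normalisation and the spread behind the p-values drew on all 16 arrays, those of the rule included. Signals were background-corrected and quantile-normalised to log2 values for this purpose, and limma's moderated test with Benjamini-Hochberg adjustment was run over all 9293 probes detected on both arrays of at least 1 group, at a threshold of 0.05. All 279 members entered this test because the rule asks for detection on the controls; on the 10 arrays outside the rule, 278 would have entered. At 6 h, 59 members (21.1%) were lower with cisplatin than with A0, where 3.29% of all tested probes were lower. The count of members that were higher was 0, where 4.84% of all tested probes were higher, with limma. Before adjustment, 153 of the 279 members and 2086 of the 9293 tested probes had a p under 0.05 in that test. The median difference over all members was -0.61, with quartiles of -0.91 and -0.39, beside a median of -0.004 over all tested probes, and 55 members lay at -1 or lower, against 2.88% of all tested probes. Both cisplatin 6 h arrays lay below both A0 6 h arrays in 208 members (74.6%), as in 24.2% of all tested probes, and above both in 3 (1.1%), as in 26.3%. The 59 members made up 19.3% of the 306 probes called lower at 6 h. With only the 10 arrays outside the rule normalised and tested, 64 of 278 members (23%) were called lower. Of all probes tested on those arrays, 3.44% were.

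The 59 members had a median difference of -1.11 and ranged from -2.27 to -0.70. The other 220 ranged from -1.49 to 0.51 with a median of -0.51. Of the 59, 9 were undetected on both cisplatin 6 h arrays, so that their intensity there is only a bound. Set against the lowest detected signal of those arrays, these 9 were at least 1.55-fold to at least 2.27-fold lower than with A0. With undetected members at their bound the median of the 59 was -1.08 and that of all members -0.60. The count of calls depended on single arrays. It was 6 without cisplatin 6 h replicate 2, where 0.689% of all tested probes were still called lower, and 39 when replicate 1 of that group was left out, where 1.94% were. Leaving out A0 6 h replicate 1 gave 32 members and 2.12% of all tested probes, and leaving out its replicate 2 gave 21 members and 2.06%. With any 1 of the 16 arrays left out, the median over all members lay between -0.67 and -0.56. When all 24350 probes were tested with no filter, 39 members were called, where 0.875% of these probes were called lower.

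**Figure D2:**
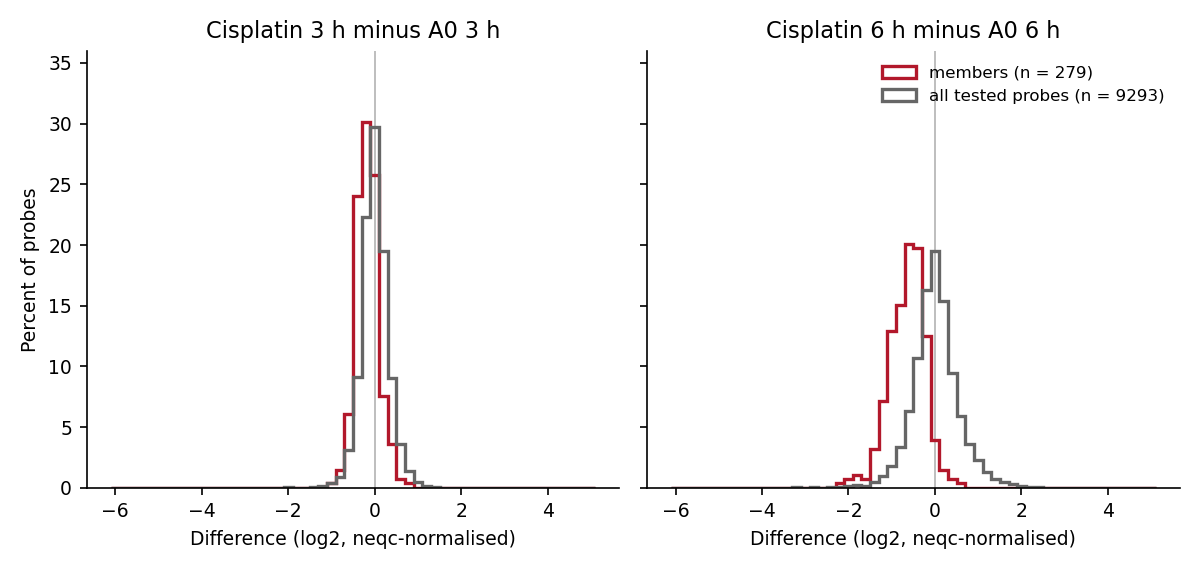
Histograms of the difference between cisplatin and A0 at 3 h (left) and 6 h (right), in percent of probes per bin, for the 279 members and for all 9293 tested probes (normalised log2 values). The members' median lies at -0.18 at 3 h and at -0.61 at 6 h, while the median of all tested probes lies within 0.01 of 0 at both times.

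At 3 h the same comparison called 0 of the members with limma, as it called 0.0108% of all tested probes lower and 0.0108% higher. An unadjusted p under 0.05 was reached by 16 of the 279 members and by 508 of the 9293 tested probes. The median difference between cisplatin 3 h and A0 3 h was -0.18, with quartiles of -0.33 and 0.00, and the members ranged from -0.91 to 0.86. Both cisplatin arrays lay below both A0 arrays in 90 members (32.3%), as in 15.6% of all tested probes, and above both in 9 (3.2%), as in 14.8%. The difference was below 0 in 211 members at 3 h and in 268 at 6 h, where 51.1% and 50.4% of all tested probes were. Across the 279 members, the differences at 3 h and at 6 h correlated with a Pearson r of 0.35 and a Spearman rho of 0.32. Probes on the same arrays are not independent, and the 2 times share no array.

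Between 3 and 6 h of cisplatin, 3 members were called lower, where 0.0968% of all tested probes were, and 0 were called higher, where 0% were, in limma's test. An unadjusted p under 0.05 was reached by 91 of the 279 members and by 901 of the 9293 tested probes. The median difference between cisplatin 6 h and cisplatin 3 h was -0.46, with quartiles of -0.66 and -0.23, and 258 members were below 0, against 47.8% of all tested probes. Both 6 h arrays lay below both 3 h arrays in 176 members (63.1%), as in 17.4% of all tested probes. The 3 calls became 0 without cisplatin 6 h replicate 2 or cisplatin 3 h replicate 1, and 1 without cisplatin 6 h replicate 1 or either cisplatin 12 h array. They were 1 when only the 10 arrays outside the rule were normalised and tested, and 5 with a trended and robust variance. Of all probes tested under these settings, 0.0113% and 0.172% were called lower.

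The same step with A0 called 0 members, where 0% of all tested probes were called in either direction, in limma's test. Before adjustment, 5 of the 279 members and 481 of the 9293 tested probes had a p under 0.05. The median difference between A0 6 h and A0 3 h was 0.04, with quartiles of -0.14 and 0.16, and 121 members were below 0, against 50.9% of all tested probes. Both 6 h arrays lay below both 3 h arrays in 36 members (12.9%), as in 16% of all tested probes, and above both in 48 (17.2%), as in 13.9%. The change between 3 and 6 h was then compared between the drugs in 1 model. In 27 members (9.68%) both cisplatin arrays went down and both A0 arrays went up without overlap, as in 2.18% of all tested probes. The difference between the changes had a median of -0.45 over the members, with quartiles of -0.73 and -0.20, and was below 0 in 250 of them, against 47.9% of all tested probes. For single probes it passed the threshold in 0 members and in 0% of all tested probes in limma's test. An unadjusted p under 0.05 was reached there by 45 of the 279 members and by 666 of the 9293 tested probes.

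Among the 59 members called lower at 6 h, GI_27477058-S had the most negative difference between the drugs. Its normalised log2 intensity was 8.80 and 8.70 on the cisplatin 3 h arrays, 7.0 and 6.33 at 6 h, then 5.74 and 6.61 at 12 h. With A0 it was 9.15 and 9.44 at 1 h, 9.16 and 9.29 at 3 h, 9.04 and 8.83 at 6 h, then 8.41 and 8.5 at 12 h, and the controls stood at 8.78 and 8.99. All 4 cisplatin arrays from 6 h on were lower than all other arrays, the probe was detected on all of them, and the cisplatin 3 h arrays lay near control. At 6 h GI_27477058-S averaged 6.66 ± 0.47 with cisplatin and 8.93 ± 0.14 with A0 (SD, n = 2 each), a log2 difference of -2.27 (SE 0.279, limma adjusted p = 0.000732). The fall between 3 and 6 h of cisplatin was also past the threshold, at -2.09 (limma adjusted p = 0.0132). That call was lost without cisplatin 6 h replicate 2 (limma adjusted p = 0.428) and without cisplatin 3 h replicate 1 (limma adjusted p = 0.15). At 3 h the drugs differed by -0.48 (limma adjusted p = 0.973).

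The second in this order, GI_19923286-S, was read at background on some cisplatin arrays. Its normalised log2 intensity was 6.63 and 6.03 on the cisplatin 3 h arrays, 5.78 and 4.89 at 6 h, then 4.82 and 5.90 at 12 h. With A0 it read 7.01 and 7.18 at 1 h, 7.32 and 6.97 at 3 h, 7.41 and 7.29 at 6 h, then 7.10 and 7.35 at 12 h, against 6.64 and 7.10 in the controls. On this scale all 6 cisplatin arrays lay below the lower control array, the higher cisplatin 3 h array only just, and all 8 A0 arrays above it. The probe was undetected on cisplatin 6 h replicate 2 and on cisplatin 12 h replicate 1, so its mean there rests on 1 array above background. At 6 h GI_19923286-S averaged 5.34 ± 0.63 with cisplatin and 7.35 ± 0.08 with A0 (SD, n = 2 each), a log2 difference of -2.02 (SE 0.356, limma adjusted p = 0.00417). That call was lost without cisplatin 6 h replicate 2, at -1.57 (limma adjusted p = 0.0692). The difference between the drugs was -0.82 at 3 h (limma adjusted p = 0.87), and that between 6 and 3 h of cisplatin was -1.0 (limma adjusted p = 0.349).

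One member had the lowest difference at cisplatin 12 h with the floor of 32 applied, at -3.05 from control on the deposited scale. That value and its place in the order are set in part by the floor, under which 1 of the 2 arrays lay, and by the other array, which did not detect the probe. Its deposited intensity was 278.1 and 212.6 at cisplatin 3 h, 101.6 and 85.2 at 6 h, then 35.8 and 27.1 at 12 h. It was 318.1 and 294.3 at A0 1 h, 259.7 and 230.3 at 3 h, 331.7 and 273.6 at 6 h, then 213.1 and 221.0 at 12 h, with 269.6 and 293.2 in the controls. The cisplatin arrays at 6 h lay below all A0 and control arrays and detected the probe, and those at 12 h lay lower still. At 6 h the difference between cisplatin and A0 was -1.45 on the normalised log2 scale (SE 0.184, limma adjusted p = 0.000888). It was also called between cisplatin 6 h and 3 h, at -1.16 (limma adjusted p = 0.0342). That second call did not hold without either control array, either array of A0 1, 3 or 12 h, cisplatin 3 h replicate 1, or any cisplatin 6 or 12 h array, with an adjusted p from limma of up to 0.57. It was also lost with 75th percentile centring (limma adjusted p = 0.0647) and on the 10 arrays outside the rule (limma adjusted p = 0.148).

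The last of the 3 members called between 3 and 6 h had reached its low by 6 h. It read 7.97 and 7.57 on the normalised log2 scale at cisplatin 3 h, 6.17 and 6.01 at 6 h, then 6.16 and 6.12 at 12 h. The A0 6 h arrays read 7.70 and 7.97 and the controls 7.5 and 8.15. The difference was -1.68 between cisplatin 6 h and 3 h (limma adjusted p = 0.0288) and -1.74 between cisplatin 6 h and A0 6 h (SE 0.258, limma adjusted p = 0.00151); both use the same cisplatin 6 h arrays. The first of these calls was lost without cisplatin 3 h replicate 1, either cisplatin 6 h array or either cisplatin 12 h array (limma adjusted p of up to 0.522). It was lost as well with no filter (limma adjusted p = 0.0507), with array weights (limma adjusted p = 0.0574) and on the 10 arrays outside the rule (limma adjusted p = 0.0873).

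**Figure D3:**
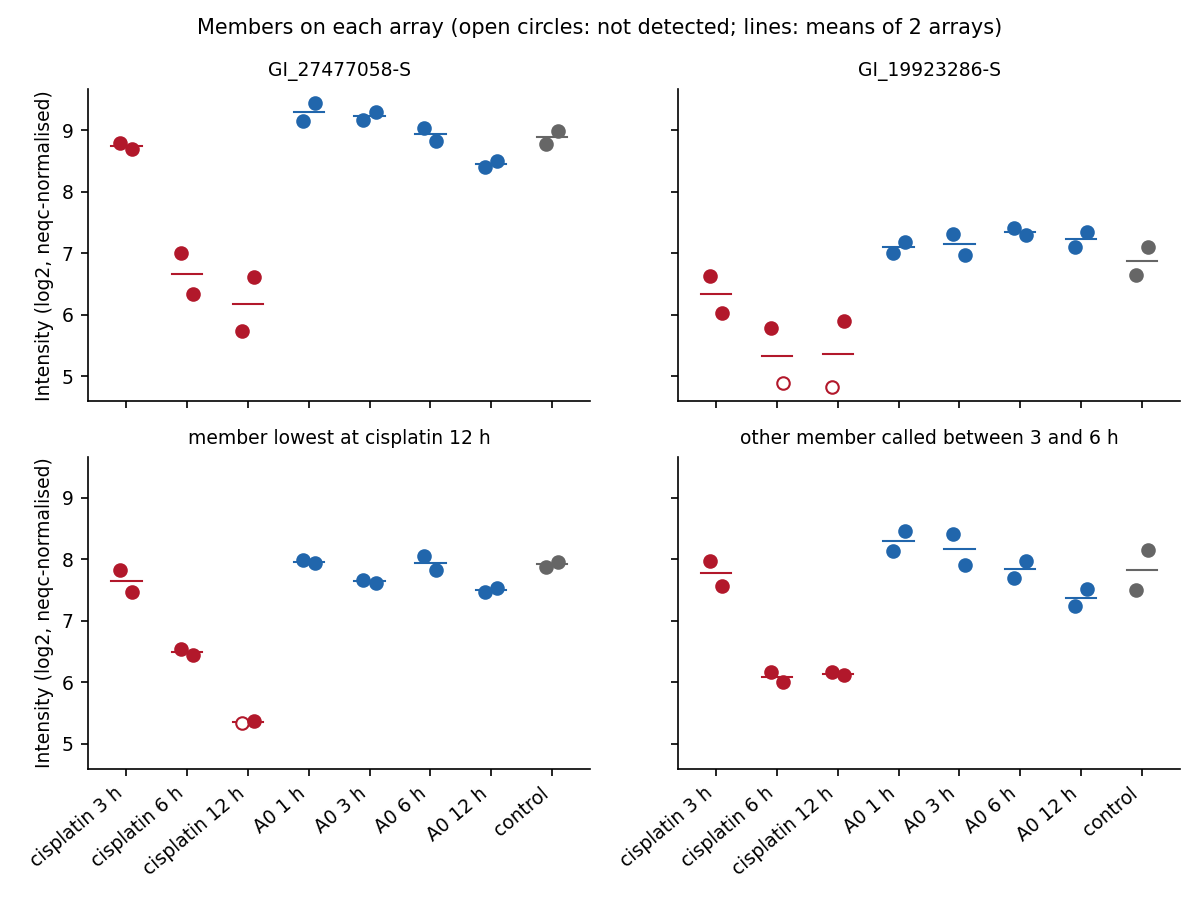
Normalised log2 intensity on every array for the 2 named members and for the other 2 that passed the test between 3 and 6 h of cisplatin. Dots are arrays, open where the probe was not detected, and lines are the means of the 2 arrays of a group; GI_27477058-S averaged 6.66 at cisplatin 6 h and 8.93 at A0 6 h.

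The member with the lowest value at cisplatin 3 h, at -1.56 from control, was dim and varied widely with A0. Its deposited intensity was 26.1 and 56.9 at cisplatin 3 h, 12.4 and 11.4 at 6 h, then -14.9 and 6.0 at 12 h. It was 89.9 and 78.2 at A0 1 h, 56.8 and 95.2 at 3 h, 25.6 and 142.0 at 6 h, then 71.3 and 116.8 at 12 h, with 108.6 and 145.5 in the controls. Neither array detected it at cisplatin 6 or 12 h, and 1 array failed to detect it in each of cisplatin 3 h, A0 3 h and A0 6 h. Since 3 of the 4 arrays of the drugs at 6 h did not detect it, no size or order is given for its difference there, which did not pass the threshold (limma adjusted p = 0.183).

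Among the members, which were chosen for low values in cisplatin 12 h, detection was lost most often in that group, while among all 8264 probes detected on both controls it was lost most often in A0 12 h. Of the 279 members, 143 were detected on both cisplatin 12 h arrays, 97 on 1 and 39 (13.98%) on neither. Among all 8264 probes detected on both controls, 3.61% were undetected on both arrays there. At cisplatin 6 h, 249 members were detected on both arrays, 19 on 1 and 11 on neither, where 2.92% of the 8264 probes were on neither, and at 3 h the counts were 258, 20 and 1, where 2.37% were. In A0 1, 3 and 6 h, 1, 0 and 0 members were on neither array, where 2.09%, 1.05% and 3.03% of these probes were. In A0 12 h, 272 members were detected on both arrays and 0 on neither, where 8.07% of the 8264 probes were on neither. Since the rule asks for low values in cisplatin 12 h and for near-control values in A0 12 h, it fixes much of this contrast. All 16 arrays detected 143 of the members.

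The 39 members undetected on both cisplatin 12 h arrays were detected on both controls by the rule, and most of them at cisplatin 3 h. At cisplatin 3 h, 31 of them were detected on both arrays, and at 6 h 22 were on both and 9 on neither. On all 8 A0 arrays 27 of them were detected. Set against the lowest detected signal, the 39 were at least 1.42-fold to at least 3.81-fold lower at cisplatin 12 h than in control, with a median bound of 1.76-fold. The 2 arrays of cisplatin 12 h differed in detection: replicate 1 detected 146 members (52.3%) and replicate 2 detected 237 (84.9%), against 88.1% and 95.6% of the 8264 probes. Of the 97 members seen on 1 array, 94 were seen on replicate 2. Replicate 1 had the larger scaling factor, 1.762 against 0.921 for replicate 2. Over all GI-numbered probes, replicate 1 detected fewer than replicate 2 in every group of the series. In every drug group it also had the larger factor. The part of the scaling factor in the lost detection was not tested.

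**Figure D4:**
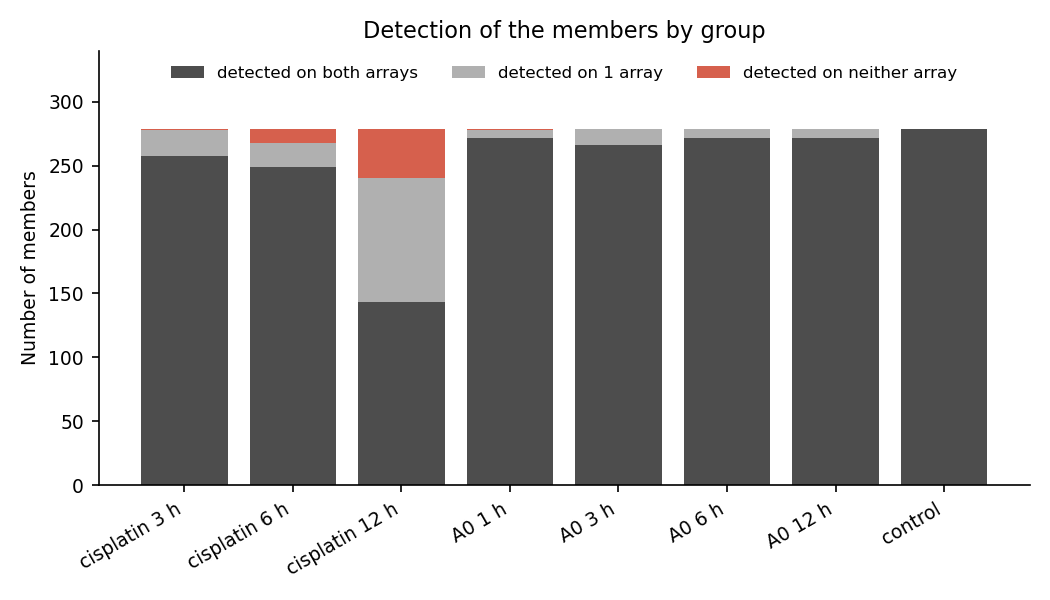
Stacked bars give the number of the 279 members detected (score of at least 0.99) on both arrays, on 1 array and on neither array of each group. The count on neither array is 39 at cisplatin 12 h, 11 at cisplatin 6 h and 0 or 1 in every other group.

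With A0 at 1, 3 and 6 h alike, 160 members (57.3%) were within 0.5 of control, as were 54.8% of the 8264 probes detected on both controls, so 119 members left that range at 1 or more of these times. At A0 1 h, 37 members (13.3%) lay at -0.5 or lower and 52 (18.6%) at 0.5 or higher, where 11.6% and 15.1% of the 8264 probes did. At A0 3 h there were 33 (11.8%) and 31 (11.1%), against 10.7% and 14.1% of these probes. At A0 6 h there were 19 (6.81%) and 23 (8.24%), against 14% and 16.6%. Larger differences were few: 7, 4 and 3 members lay at -1 or lower at A0 1, 3 and 6 h, where 2.49%, 2.03% and 3.32% of these probes did. At 1 or higher there were 9, 5 and 2 members, where 3.65%, 2.89% and 3.15% did. At all 3 times 9 members (3.23%) were at -0.5 or lower and 14 (5.02%) at 0.5 or higher, against 5.17% and 7.38% of the 8264 probes. Of the 52 members at 0.5 or higher at A0 1 h, 18 were called lower with cisplatin than with A0 at 6 h. So were 38 of the 190 within 0.5 and 3 of the 37 at -0.5 or lower, where 3.29% of all tested probes were. A rise with A0 adds to that comparison as a fall with cisplatin does. All of the differences from control use the 2 control arrays, which the rule used too, and none was tested, nor were the differences between these sets.

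The members were set beside the other probes that cisplatin lowered by the same amount at 12 h. The 194 probes that A0 12 h also held at -0.5 or lower had median differences from control of -0.60, -1.17 and -1.32 at cisplatin 3, 6 and 12 h, and of -0.40, -0.50, -0.69 and -0.96 at A0 1, 3, 6 and 12 h. The 59 that A0 12 h held at 0.5 or higher had medians of 0.06, -0.58 and -1.30 in cisplatin and 0.29, 0.32, 0.54 and 0.75 in A0. The members' medians of -0.20 at cisplatin 3 h and -0.77 at 6 h lay between those of the other 2 sets. Neither array of cisplatin 12 h detected 13.98% of the members, 19.6% of the 194 and 11.9% of the 59. In the direct comparison at 6 h, 59 of the 279 members were called lower with cisplatin than with A0. So were 23 of the 194 and 29 of the other set of 59, where 3.29% of all tested probes were. Being lower at 6 h was thus not particular to the members. The sets are split on a difference that shares its controls with every difference from control given here, and the differences between the sets were not tested.

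The difference between cisplatin and A0 at 6 h placed single members with little precision. Taken once between the arrays numbered 1 and once between those numbered 2, it correlated across the 279 members with a Pearson r of 0.40 and a Spearman rho of 0.36. The plot of the members at 6 h and at 12 h sets this difference beside the 12 h value that chose the members. That value ends at the threshold of -1 and, for the 36 members with both arrays at the floor and the 66 with 1, is limited by the floor, so no relation is read from it.

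**Figure D5:**
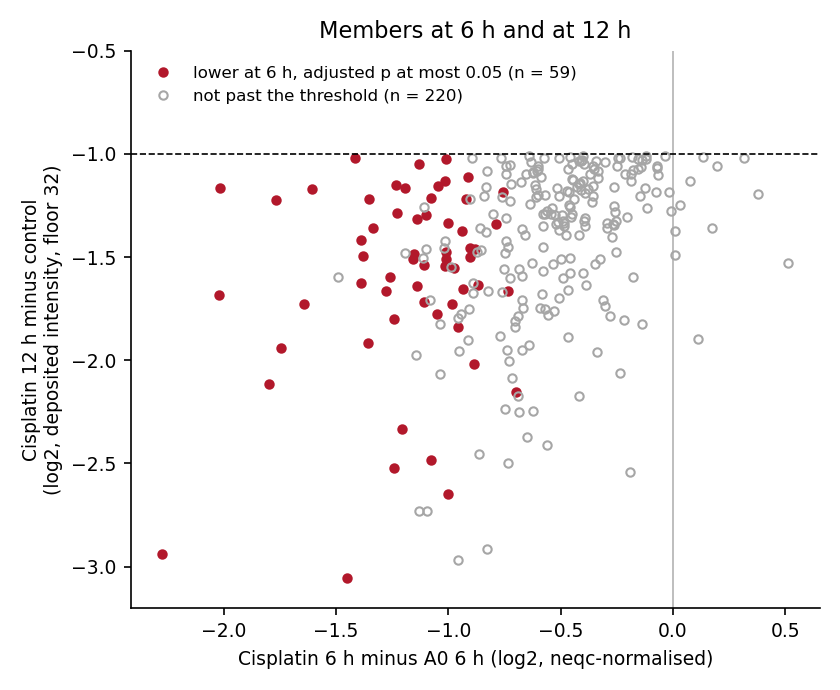
Each dot is 1 of the 279 members, with the difference of cisplatin 6 h from A0 6 h on the horizontal axis (normalised log2 values) and that of cisplatin 12 h from control on the vertical axis (log2 of deposited intensity with a floor of 32). The dashed line is the threshold of -1 that chose the members, so all dots lie below it; the 59 filled dots passed the test at 6 h and reach -2.27.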

How the data were processed

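The authors deposited 1 scanner table per array with, per the file headers, the mean bead intensity of each probe and its detection score as a fraction from 0 to 1. These intensities are linear and carry no scaling across arrays. The submitters' processing notes name BeadStudio 1.5.1.3. A further deposited table of processed intensity, on which the members were chosen, proved to be a straight line of each array's scanner signal, with a largest residual of 0.079 to 0.177; it is linear and background-subtracted, and no source used here names the scaling method. Its column medians ran from 10.9 to 21.3.

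For the tests, signals were normalised with neqc (offset 16) in limma 3.58.1 under R 4.3.3. One linear model over 16 arrays gave each group a mean, with 8 residual and 5.7 prior degrees of freedom, and 5 comparisons outside the rule were tested. The test of cisplatin 6 h against A0 6 h was checked on simulated data with the same spread in every group. It called 52% of the probes changed by 1 on the log2 scale, 99% of those changed by 2 and 0.05% of the unchanged ones. Smaller changes were not simulated. The members, lists and tests were chosen with earlier results of these data known. The named probes are the first 2 by difference at 6 h among members called lower whose arrays did not overlap; the members lowest at cisplatin 12 h and 3 h are described without their numbers, and the last of the 3 members called between 3 and 6 h was chosen after its values were seen. The gene lists and marker lists could not be matched and were not used.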

Additional observations from a re-analysis of the deposited data

Results flagged for a closer look

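The effects of the 2 drugs at 6 h differed by the direct test in 59 members (21.1%), all lower with cisplatin than with A0, where 3.29% of all tested probes were lower and 4.84% higher. Without cisplatin 6 h replicate 2 the count was 6, where 0.689% of all tested probes were lower. Among them GI_27477058-S differed by -2.27 on the log2 scale and GI_19923286-S by -2.02, a call that was lost without the same array, and in each of the 2 both cisplatin 6 h arrays lay below both A0 6 h arrays. Between 3 and 6 h, 27 members (9.68%) had both cisplatin arrays going down and both A0 arrays going up without overlap, where 2.18% of all tested probes did. Taken alone, the cisplatin fall was seen in 63.1% of the members, against 17.4% of all tested probes. The A0 rise alone was seen in 17.2%, against 13.9%, and so lay near the share of all tested probes. The difference between the drugs was not tested for these 27 as a set. Groups of 2 arrays are too small to mark a single array as far from the others.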

How the results depend on the processing

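Each of the 5 comparisons was repeated under 7 other settings and without each of the 16 arrays in turn. The members' median kept its sign in the 4 comparisons other than A0 6 h against A0 3 h under all of these; for that one it lay between 0.00 and 0.11. Of the 59 members lower with cisplatin than with A0 at 6 h, the count was 39 with no filter, 49 to 76 under the remaining settings, and 6 to 74 with 1 array left out. The 3 members called between cisplatin 3 and 6 h were 1 on the 10 arrays outside the rule, 5 with a trended and robust variance and 0 to 3 with 1 array left out. The remaining 3 comparisons called 0 members under every setting run. With the replicate number as a block the counts were 74 at 6 h and 3 between cisplatin 3 and 6 h. Of all probes tested, 4.1% and 0.108% were then called lower. At 6 h this share was 0.875% with no filter and 2.77% to 4.1% under the remaining settings. Between cisplatin 3 and 6 h it was 0.0113% on the 10 arrays outside the rule and 0.172% with a trended and robust variance. The replicate numbers are shared by name. Replicate differences correlated at 0.123 to 0.364 between the 4 groups compared, and at -0.257 to 0.376 over all 8. The rule gave 171 members with a floor of 64 (170 shared with the 279), 369 with a floor of 16 (278 shared), 251 on the neqc values (205 shared) and 241 to 356 with 1 array left out. The causes of these moves were not tested. Signal over background limits the low end: 11 members at cisplatin 6 h and 39 at cisplatin 12 h have only a bound.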

Other observations

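By their mean level over all arrays on the normalised log2 scale, the 279 members ran from 5.41 to 12.02. In 3 sets of 93 by this level, from dim to bright, the median difference of cisplatin 6 h from A0 6 h was -0.58, -0.67 and -0.58. The number undetected on both cisplatin 12 h arrays was 35, 4 and 0 in the same order. By probe type, the median difference from control at cisplatin 6 and 12 h was -0.74 and -1.34 for probes of a single transcript, -0.90 and -1.38 for probes of all variants, and -0.95 and -1.53 for probes of 1 variant. None of these differences between sets was tested.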
